A study of Rattus norvegicus with 10 samples.

Results

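The major histocompatibility complex (MHC) class II genes of the rat encode the proteins that carry peptides from endosomes to the cell surface and show them to CD4+ T cells. A listed set of 10 such genes, found in the count table by symbol, was followed among its 23422 genes in RNA sequencing libraries of distal colon epithelium. The set held the alpha and beta chains of the presenting molecules (RT1-Ba and RT1-Bb, RT1-Da and RT1-Db1), their chaperone Cd74, the peptide editors RT1-DMa and RT1-DMb, the modulators of that editing RT1-DOa and RT1-DOb, and the transcriptional coactivator Ciita. Of these 10 genes, 8 had reads, and the same 8 passed the filter on low counts and were tested.

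An alpha and a beta chain pair in the endoplasmic reticulum and are held there and guided to the endosome by the invariant chain, the product of Cd74. In the endosome the invariant chain is cut down by cathepsins, its last fragment is exchanged for a peptide by the DM heterodimer, and DO restrains DM. Transcription of the presenting chains depends largely on CIITA, which does not bind DNA itself but joins the factors RFX, CREB and NF-Y on the X and Y boxes of the promoters. Professional antigen-presenting cells make class II constitutively, and intestinal epithelium makes it at a level that interferon gamma raises.

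The rats were male Wistar Munich animals acclimatized for 3 days, after which the 12 rats were kept for 10 days either on control chow or on chow containing sodium cholate at 1% w/w, which is the salt of a primary bile acid. Epithelial cells were detached from the distal colon with EDTA, so the preparation could hold immune and stromal cells as well. RNA concentration decided which rats were sequenced, the top 5 of each diet being taken. The controls were rats 1, 2, 5, 6 and 9, and the cholate group was made up of rats 3, 4, 7, 8 and 11. The labels name no transgene, deletion or other agent in either group.

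Library totals ran from 14337356 to 45285762 counts. Levels are given as CPM, counts scaled to a fixed library total, after TMM (trimmed mean of M values) normalization. A change is a log2 fold change, positive where cholate rats had more, and its standard error (SE) is approximate. A gene was called at a Benjamini-Hochberg adjusted p under 0.01 in the edgeR quasi-likelihood test with a fold over 2, which are the limits the study set. The libraries were divided into 2 sets by the sign of the first component of the variation within diets, which held 66.3% of it. Rats 1, 2, 3, 4, 6 and 7 formed the first set and rats 5, 8, 9 and 11 the second, so that each diet had 3 and 2 of them. The component placed control rat 5 at -19.1, between the first set (24.6 to 44.7) and the other rats of the second (-70.3 to -56.5). Along it long genes had relatively fewer counts in control rat 9 and cholate rats 8 and 11 of the second set, while control rat 5 was within the range of the first set in this respect (Spearman rho, across genes, of coding length with the log2 level relative to the mean of all libraries 0.12, against 0.10 to 0.31 in the first set), and the labels record no batch that would match it. Epcam, which marks epithelium, stood between 1891 and 2884 CPM in all 10 libraries.

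None of the 8 tested class II genes was called, whereas 3.21% of the 12385 genes tested over the whole table were, 1.1% as higher and 2.12% as lower on cholate. The chains of the presenting molecules were nonetheless about 1.5-fold higher on cholate by estimate, with adjusted p values of 0.0732 to 0.279 (edgeR), and none passed an adjusted p of 0.05, which 6.48% of all genes did as higher. The levels in the diets overlapped for every member. Of all genes 6.3% stood apart as higher and 6.8% as lower. With only 8 members, having none called and none apart does not distinguish them from all genes. Ciita was not higher on cholate by estimate, and 10 of 20 tested genes of class I presentation had lower levels at an adjusted p under 0.05 (edgeR), which 7.28% of all genes had. In bulk samples of this kind, a difference in the number of cells that express a gene and a difference in its RNA per cell cannot be told apart.

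Promoter sequences are shown for the members because CIITA acts through elements of class II promoters. RefSeq promoters of the rat build GRCr8, from 250 bases before to 50 after each gene start, were found for 8 of the 10 genes, Ciita and RT1-DMb being unmatched. The Y box was searched as TGATTGG and the core of the X box as GCAAC, each on both strands and without overlap between them. Each line below gives the gene strand 5′ to 3′, from up to 45 bases before the Y box to 5 bases after it, with the Y box and any X-box core in capitals, and for Cd74 the CCAAT core in capitals.
RT1-Da (chr20:4515319-4515375, plus strand): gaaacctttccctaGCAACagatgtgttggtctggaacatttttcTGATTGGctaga
RT1-Db1 (chr20:4560233-4560289, minus strand): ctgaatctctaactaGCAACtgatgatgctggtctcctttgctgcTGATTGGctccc
RT1-Ba (chr20:4576967-4577023, plus strand): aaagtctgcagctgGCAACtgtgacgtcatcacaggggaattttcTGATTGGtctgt
RT1-Bb (chr20:4604170-4604226, minus strand): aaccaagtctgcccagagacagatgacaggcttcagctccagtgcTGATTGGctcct
RT1-DOa (chr20:4758521-4758577, minus strand): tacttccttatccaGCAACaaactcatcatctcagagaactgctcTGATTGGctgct
RT1-DOb (chr20:4627597-4627653, minus strand): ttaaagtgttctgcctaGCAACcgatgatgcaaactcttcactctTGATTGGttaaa
RT1-DMa (chr20:4712390-4712446, minus strand): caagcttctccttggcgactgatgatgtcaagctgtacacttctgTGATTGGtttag
Cd74 (chr18:56526972-56527026, plus strand): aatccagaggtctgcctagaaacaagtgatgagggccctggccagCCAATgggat

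The Y box stood on the gene strand in 7 of the 8 promoters, all but that of Cd74, where the core CCAAT lay in the opposite orientation. TGATTGG or its reverse complement occurs in 7.06% of the 33469 promoters in the table, GCAAC or its reverse complement in 35.1%, and ATTGG or its reverse complement in 37.5%. In 5 members, RT1-Da, RT1-Db1, RT1-Ba, RT1-DOa and RT1-DOb, the X-box core preceded the Y box within 45 bases, and the gap between them was 23 to 26 bases. That arrangement occurs in 45 of all promoters, or 0.134%. These are matches of letters in a fixed window and show no occupancy.

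RT1-Da encodes the alpha chain of the rat counterpart of human HLA-DR (GeneID 294269, chr20:4127644-4132616 on rn6, minus strand). Its level was 33.2, 27.4, 21.1, 42.6 and 23.6 CPM in control rats 1, 2, 5, 6 and 9 and 47.2, 43.1, 31.1, 41.5 and 62.3 CPM in cholate rats 3, 4, 7, 8 and 11. Cholate rats 3, 4 and 11 lay above every control, control rats 2, 5 and 9 lay below every cholate rat, and the remaining rats overlapped. The means were 29.6 ± 8.60 and 45.1 ± 11.3 CPM (SD, n = 5 per diet), a log2 change of 0.60 (SE 0.23, adjusted p = 0.107, edgeR). Its partner RT1-Db1, the beta chain (GeneID 294270, chr20:4087621-4097190, plus strand), had 17.2, 10.3, 12.7, 28.3 and 19.7 CPM in the controls and 24.5, 19.7, 15.4, 29.5 and 40.5 CPM on cholate, in the same order of rats. It was the most variable of the 4 chains, and only cholate rats 8 and 11 exceeded every control. Its log2 change was 0.55 (SE 0.32, adjusted p = 0.279, edgeR). A near neighbour with a similar name, RT1-Db2, had 99 reads over the 10 libraries against 5700 for RT1-Db1, and the handling of reads that match both is not given here.

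RT1-Ba and RT1-Bb encode the alpha and beta chains of the counterpart of human HLA-DQ. RT1-Ba (GeneID 309621, chr20:4066133-4070726, minus strand) had 26.9, 22.3, 18.9, 33.1 and 20.1 CPM in the controls and 40.6, 34.9, 28.1, 32.1 and 44.4 CPM on cholate. Only control rat 6 reached into the cholate range, and cholate rats 3, 4 and 11 exceeded it. RT1-Ba had the smallest adjusted p of the set, with means of 24.3 ± 5.82 and 36.0 ± 6.52 CPM (SD, n = 5 per diet) and a log2 change of 0.57 (SE 0.19, approximate 95% interval 0.15 to 0.99, adjusted p = 0.0732, edgeR). RT1-Bb (GeneID 309622, chr20:4043726-4049367, plus strand) had 17.4, 14.2, 13.2, 22.8 and 13.9 CPM in the controls and 29.3, 21.7, 16.6, 24.7 and 29.6 CPM on cholate. Control rats 1 and 6 overlapped with the cholate rats, and cholate rats 3, 8 and 11 stood above all controls. Its log2 change was 0.58 (SE 0.21, adjusted p = 0.0934, edgeR).

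Before adjustment, RT1-Ba, RT1-Bb, RT1-Da and RT1-DOb had p values of 0.0125, 0.0189, 0.0235 and 0.0320 in the edgeR test. These 4 of 8 members compare with 14.5% of all genes that were higher on cholate at an unadjusted p under 0.05. Of the 8 members, 7 were higher by estimate, as were 48.9% of all genes, and their median log2 change was 0.56 against -0.01 over all genes tested. The members were measured in the same rats, and RT1-Ba, RT1-Bb and RT1-Da varied together within diets. These counts of members are therefore not independent observations, and their excess over the shares of all genes was not tested. In DESeq2 the adjusted p was 0.0256 for RT1-Ba and 0.0413 for RT1-Bb, at a limit of 0.05 that 11% of all genes met as higher in that tool.

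**Figure D1:**
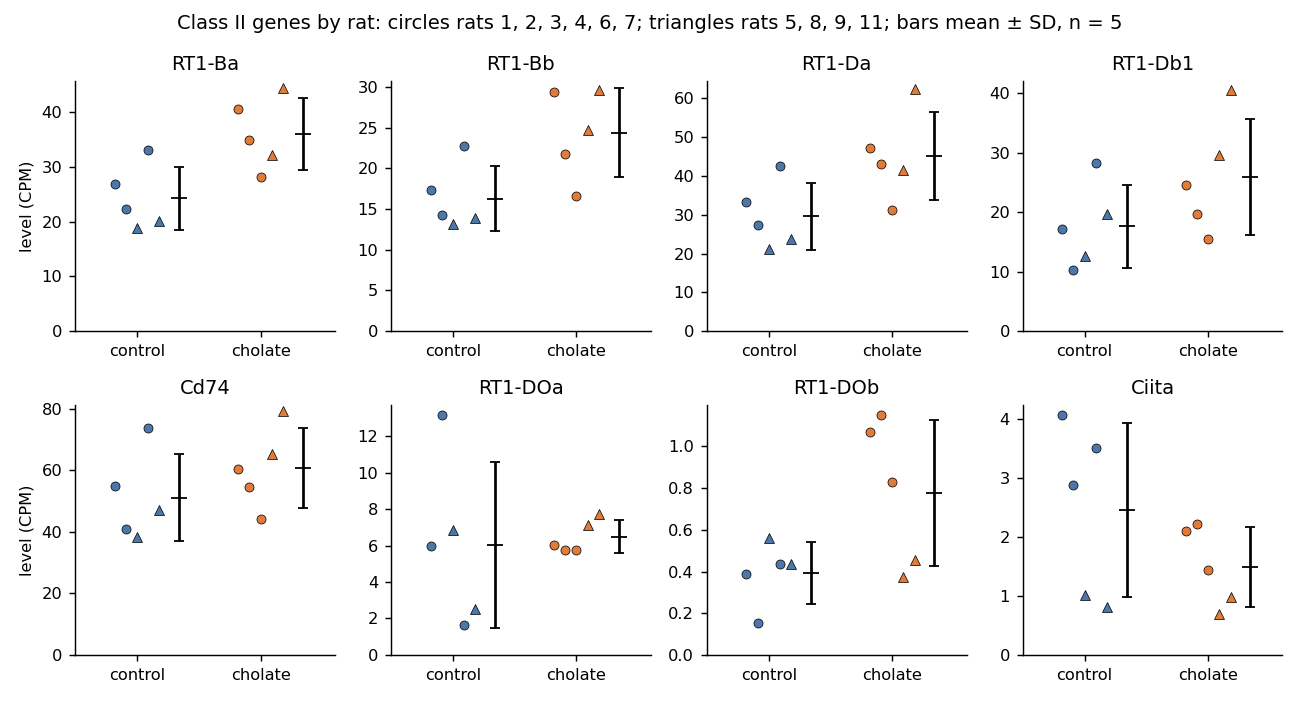
Level in CPM (vertical axes, linear from 0) of each class II gene with reads in every rat by diet; circles mark rats 1, 2, 3, 4, 6 and 7, triangles rats 5, 8, 9 and 11, and bars the mean ± SD of 5 rats per diet. The 4 chains of the presenting molecules overlap between the diets, with cholate rat 11 highest in each.

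Cd74 encodes the invariant chain (GeneID 25599, chr18:56071420-56080851, plus strand). It had 54.9, 41.1, 38.5, 73.8 and 47.1 CPM in the controls and 60.4, 54.5, 44.3, 65.4 and 79.3 CPM on cholate. Cholate rat 11 alone lay above all controls, and control rats 2 and 5 alone below all cholate rats. The means of 51.1 ± 14.2 and 60.8 ± 13.0 CPM (SD, n = 5 per diet) gave a log2 change of 0.25 (SE 0.21, approximate 95% interval -0.21 to 0.71, adjusted p = 0.479, edgeR).

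RT1-DOa and RT1-DOb encode the chains of the DO modulator, which in other species is chiefly found in B cells. RT1-DOa (GeneID 24984, chr20:3889106-3892360, plus strand) had 5.96, 13.1, 6.86, 1.64 and 2.50 CPM in the controls and 6.02, 5.77, 5.76, 7.14 and 7.74 CPM on cholate. The controls spanned an 8.01-fold range around the cholate rats, which spanned a 1.35-fold range. Its log2 change of 0.10 (SE 0.47, adjusted p = 0.916, edgeR) turned to 0.61 without control rat 2 and to -0.14 without control rat 6. RT1-DOb (GeneID 365542, chr20:4020273-4026398, plus strand) was the scarcest tested member, with 4 to 56 reads per library. It had 0.386, 0.153, 0.559, 0.438 and 0.435 CPM in the controls and 1.07, 1.1501, 0.830, 0.376 and 0.456 CPM on cholate. Cholate rats 3, 4 and 7 exceeded every control, and cholate rats 8 and 11, of the second library set, lay within the controls. The log2 change was 1.02 (SE 0.41, adjusted p = 0.130, edgeR), and limma-voom with sample quality weights was the 1 alternative that called it, with a log2 change of 1.47 and an adjusted p of 0.00640.

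Ciita encodes the coactivator (GeneID 85483, chr10:5212621-5260641, minus strand). It had 4.07, 2.87, 1.01, 3.50 and 0.816 CPM in the controls and 2.10, 2.22, 1.45, 0.689 and 0.987 CPM on cholate. The diets overlapped because control rats 5 and 9, of the second library set, were low with cholate rats 8 and 11. The log2 change was -0.70 (SE 0.49, adjusted p = 0.391, edgeR). Within the first set every cholate rat lay below every control, with a log2 change of -0.83 (adjusted p = 0.0361, edgeR), and within the second it was -0.17 (adjusted p = 0.913, edgeR). In the first set 18.7% of all genes were higher at an adjusted p under 0.05 (edgeR). The shares that were lower or stood apart there were not counted. Ciita had the longest coding length of the 10 genes at 3505 bases, and its level was lowest in the 4 rats of the second set; the part of the set in its values was not tested.

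RT1-DMa (GeneID 294274, chr20:3935512-3938915, plus strand) and RT1-DMb (GeneID 294273, chr20:3945383-3952838, plus strand) are listed at 0 in all 10 libraries and were not tested. The files' annotation holds for each a second gene on chromosome 20 with the same coding length and coding span, and those copies had 2 reads and 0 reads in all. Brd2, a widely expressed gene beside RT1-DMa, and Tap2 also had copies of equal coding length, and both genes and both copies were likewise at 0. The 0 values therefore give no level for DM in these cells, and the handling of reads with several matches is unknown.

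Per kilobase of coding length, the mean levels in the controls were ordered Cd74 (60.6 ± 16.8 CPM per kb), RT1-Da (38.6 ± 11.2), RT1-Ba (31.6 ± 7.58), RT1-Db1 (22.2 ± 8.78), RT1-Bb (20.6 ± 5.01), RT1-DOa (7.96 ± 6.02), Ciita (0.700 ± 0.420) and RT1-DOb (0.481 ± 0.182), all as mean ± SD of 5 rats. Between neighbours in that order only RT1-DOa and Ciita had ranges over rats that did not overlap. Compared within each control rat, Cd74 exceeded RT1-Da, RT1-Da exceeded RT1-Ba, RT1-Ba exceeded RT1-Db1 and RT1-Bb exceeded RT1-DOa in 5 of 5. RT1-Db1 exceeded RT1-Bb in only 2 of 5, and Ciita exceeded RT1-DOb in 3 of 5. The order is one of reads aligned to rn6. How fully the reads of each gene aligned in these Wistar Munich rats was not tested, for the order or for ratios between genes. On cholate the chains of the presenting molecules stood at 58.7 ± 14.8 (RT1-Da), 46.9 ± 8.48 (RT1-Ba), 32.6 ± 12.2 (RT1-Db1) and 30.8 ± 6.90 CPM per kb (RT1-Bb), and Cd74 at 72.1 ± 15.4 (SD, n = 5).

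**Figure D2:**
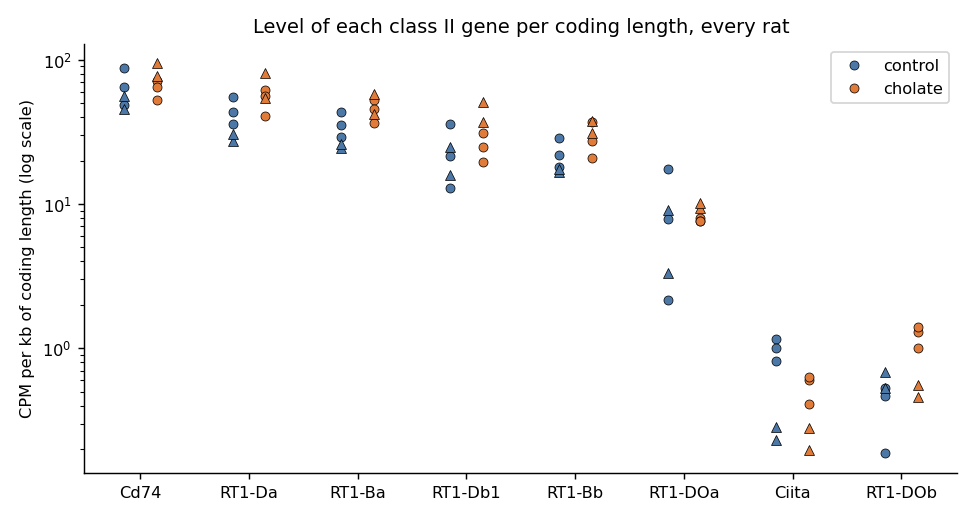
Level in CPM per kilobase of coding length (log axis) of the 8 class II genes with reads, for every rat, with controls and cholate side by side; circles and triangles mark the first and second library sets. Levels fall from Cd74, at 60.6 CPM per kb in the control mean, to RT1-DOb at 0.481, with a gap of about 10.7-fold between RT1-DOa and Ciita.

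By library set, the estimated differences of the chains were larger in the 4 rats of the second set than in the 6 of the first. RT1-Da had a log2 change of 1.18 in the 4 rats (adjusted p = 0.0215, edgeR; 2.04% of all genes were higher there at a limit of 0.05) and 0.26 in the 6 (adjusted p = 0.318, edgeR). The values were 0.94 and 0.36 for RT1-Ba, 0.97 and 0.34 for RT1-Bb, 1.07 and 0.12 for RT1-Db1, and 0.72 and -0.06 for Cd74. In the second set both cholate rats exceeded both controls for each of these 5 genes and for RT1-DOa, and in the first set the diets overlapped for all 6. With 2 rats per diet such a separation arises easily by chance, and the share of all genes that showed it was not counted. RT1-DOb ran the other way, with a log2 change of 1.63 in the 6 rats (adjusted p = 0.0172, edgeR; 18.7% of all genes were higher there at that limit), and it was too scarce to be tested in the 4. The difference between the sets was not tested. With the set as a term over all 10 rats, the adjusted p (edgeR) was 0.0206 for RT1-Ba, 0.0382 for RT1-Bb and 0.0453 for RT1-Da. A limit of 0.05 was met as higher by 17.3% of all genes in that fit. None of the members was called in it, against 6.69% of all genes. The set term was drawn from the variation within diets of these same counts. Its fit takes out that variation by construction, so the p values can be too small.

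**Figure D3:**
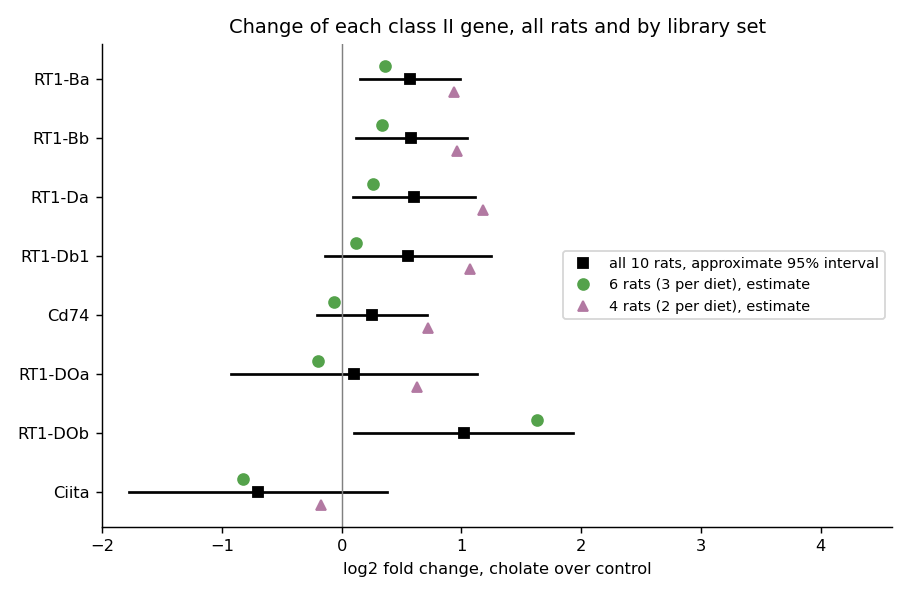
Log2 fold change of cholate over control (horizontal axis) of the 8 tested class II genes in all 10 rats (squares, with approximate 95% intervals), in the 6 rats of the first library set (circles) and in the 4 rats of the second (triangles; RT1-DOb was not tested there). The triangles lie to the right of the circles for 7 genes, as for RT1-Da at 1.18 and 0.26.

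Ratios of partner genes within a library need no scaling between libraries, and they were compared by exact two-sided permutation of the rats over every split into groups of 5, adjusted over the 4 ratios with enough reads. RT1-Ba to RT1-Bb was steady, at 1.30 to 1.69 reads of the alpha chain per read of the beta chain over all 10 rats. Its mean was 1.49 in both diets, with a difference of 0.00 on the log2 scale (exact permutation p = 0.976, adjusted p = 0.976). RT1-Da to RT1-Db1 ran from 1.20 in control rat 9 to 2.66 in control rat 2, and the diets differed by 0.05 on the log2 scale (exact permutation p = 0.849, adjusted p = 0.976). RT1-DOa to RT1-DOb ran from 3.67 in control rat 6 to 76.3 in control rat 2 and differed by -0.47 (exact permutation p = 0.651, adjusted p = 0.976). None of these 3 ratios separated the diets over all 10 rats. RT1-DOa to RT1-DOb differed by -1.49 in the first library set, where the diets overlapped, and by 1.05 in the second, where both cholate rats were above both controls.

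Cd74 relative to RT1-Da was lower on cholate. The controls had 1.65, 1.498, 1.82, 1.73 and 1.99 Cd74 reads per RT1-Da read and the cholate rats 1.28, 1.26, 1.42, 1.58 and 1.27. Only cholate rat 8 and control rat 2 crossed. The log2 ratio was 0.79 ± 0.15 in the controls and 0.44 ± 0.14 on cholate (SD, n = 5 per diet), a difference of -0.35 (exact permutation p = 0.0159, adjusted p = 0.0635), which did not pass a limit of 0.05 after adjustment. Within the first library set the difference was -0.30 and within the second -0.43, with every cholate rat below every control in both. Exchanging rats only within the sets gave an exact permutation p of 0.0167 (adjusted p = 0.0667). That p is the smallest that the 120 such splits allow. With no other ratio near it, the adjusted value could not have passed 0.05, so it decides nothing at that limit.

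**Figure D4:**
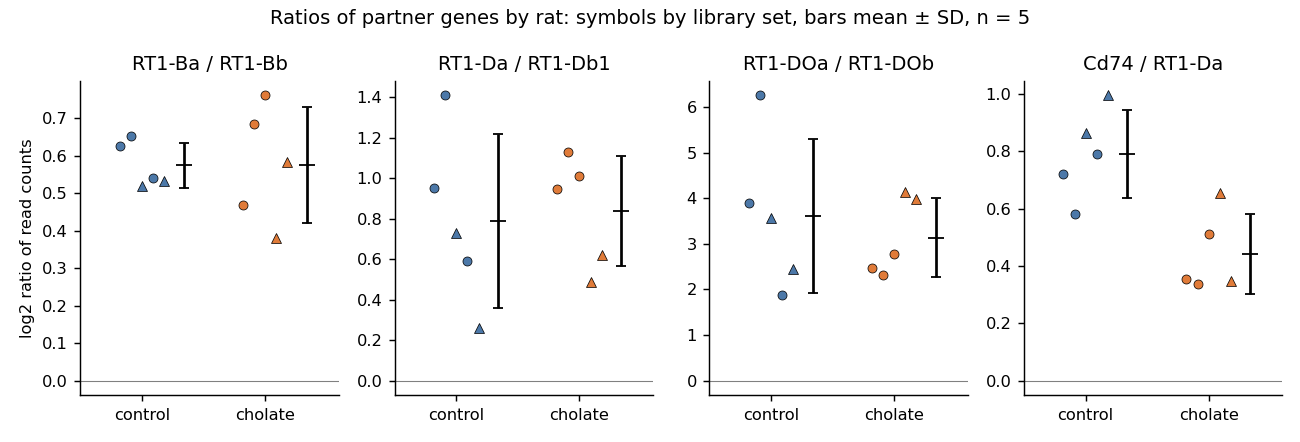
Log2 ratio of read counts (vertical axes) of 4 pairs of class II genes in every rat, with 0.5 added to each count; circles and triangles mark the first and second library sets and bars the mean ± SD of 5 rats. The Cd74 to RT1-Da ratio is 0.79 in the control mean and 0.44 in the cholate mean, with 2 rats crossing.

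Of 16 listed genes of class II transcription other than Ciita, 15 were tested and none was called, with a median log2 change of -0.12. Rfx5, which binds the X box, had -0.43 (adjusted p = 0.389, edgeR), and Rfxap was listed at 0 in all 10 libraries. Whether reads of Rfxap were lost in alignment or counting was not tested, so that 0 gives no level for it. Irf8, known as a factor of myeloid and B cells, had the smallest adjusted p, at 70.1 ± 4.06 CPM in the controls and 47.6 ± 5.79 on cholate (log2 change -0.56, SE 0.12, adjusted p = 0.0113, edgeR; SD, n = 5). Its levels did not overlap, which 6.8% of all genes showed as lower. Prdm1, chosen after its values were seen, encodes a repressor of Ciita in plasma cells. It had 0.435 to 1.44 CPM in the controls, 13.7, 6.82 and 6.26 CPM in cholate rats 3, 4 and 7 and only 1.57 and 0.607 CPM in cholate rats 8 and 11, so its high values were confined to the first library set (log2 change 2.48, adjusted p = 0.0377 over all rats, edgeR).

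In the interferon gamma list 15 of 18 genes were tested and none was called, with a median of -0.09. Ifng itself was at 0 in 9 of the 10 libraries and had 1 read in the other, cholate rat 4. Irf1, an interferon-induced activator of a Ciita promoter, had 97.1, 109.9, 105.0, 112.5 and 138.6 CPM in the controls and 19.4, 40.9, 51.9, 75.2 and 57.1 CPM on cholate. Every cholate rat lay below every control (log2 change -1.20, SE 0.29, adjusted p = 0.0206, edgeR). Irf1 was called in DESeq2 (adjusted p = 0.000879) and with the library set as a term (adjusted p = 0.00237, edgeR). The set term was drawn from these same counts, so the latter p value can be too small.

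Endosomal processing genes held 1 called gene among 15 tested. Ctsl, a cathepsin that cuts the invariant chain in thymic epithelium of the mouse, rose from 100.01 ± 14.2 to 227.4 ± 50.5 CPM (SD, n = 5; log2 change 1.19, SE 0.17, adjusted p = 0.00206, edgeR). Ctss, the cathepsin that does so in antigen-presenting cells of the mouse and chosen after its values were seen, had 605.4 ± 116 and 397.4 ± 41.8 CPM (log2 change -0.61, adjusted p = 0.0209, edgeR), with no overlap between diets. Ctsb, another cathepsin, and Lamp2, a lysosomal membrane protein, both chosen in the same way, also lay lower in every cholate rat, with log2 changes of -0.51 (adjusted p = 0.00768, edgeR) and -0.87 (adjusted p = 0.00942, edgeR), under the fold limit. The median of the list was -0.04. Costimulatory genes, which accompany antigen presentation, had 5 of 12 tested and none called; Cd80 and Cd40 stood at 0.0896 and 0.127 CPM in the control means. Icoslg had the smallest adjusted p among them, with a log2 change of -0.69 (adjusted p = 0.0298, edgeR).

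Class I presentation differed in direction from the class II chains. Of 20 tested genes, 17 were lower by estimate, with a median log2 change of -0.82, and 1 was called. That gene was Psmb8, an immunoproteasome subunit encoded between the class II genes, which fell from 21.6 ± 3.54 to 6.96 ± 2.73 CPM (SD, n = 5; log2 change -1.65, SE 0.26, adjusted p = 0.00334, edgeR). Its call was kept in 6 of the 10 fits that left out a rat and lost without control rats 1, 2 or 6 or cholate rat 4 (adjusted p from 0.0107 to 0.0120, edgeR), in glmTreat (0.174) and in the 4 rats of the second library set (log2 change -1.17, adjusted p = 0.0522, edgeR). B2m, the light chain of class I and chosen after its values were seen, had -0.90 (adjusted p = 0.00519, edgeR), just under the fold limit. RT1-A2, a class I heavy chain chosen in the same way, had -1.14 (adjusted p = 0.0141, edgeR). Heavy chain genes of class I are near copies of each other, and their counts are uncertain for that reason. The contrast of class I with class II was not tested as such.

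The chromosome 20 stretch from RT1-DOa to RT1-Da (3889106 to 4132616 on rn6) held 14 genes of the table, 8 of them class II members and 6 others. Of the 6 others 4 had reads, and 3 were tested, namely Psmb8, Tap1 and Psmb9. Tap1, a subunit of the class I peptide transporter, had a log2 change of -0.94 (adjusted p = 0.0585, edgeR) and Psmb9 one of -0.81 (adjusted p = 0.119, edgeR). The 6 tested class II members in the same stretch were higher by estimate, as were 48.9% of all genes. Among them RT1-DOa had a log2 change of only 0.10 (adjusted p = 0.916, edgeR), which reversed in 3 of the 22 other fits.

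**Figure D5:**
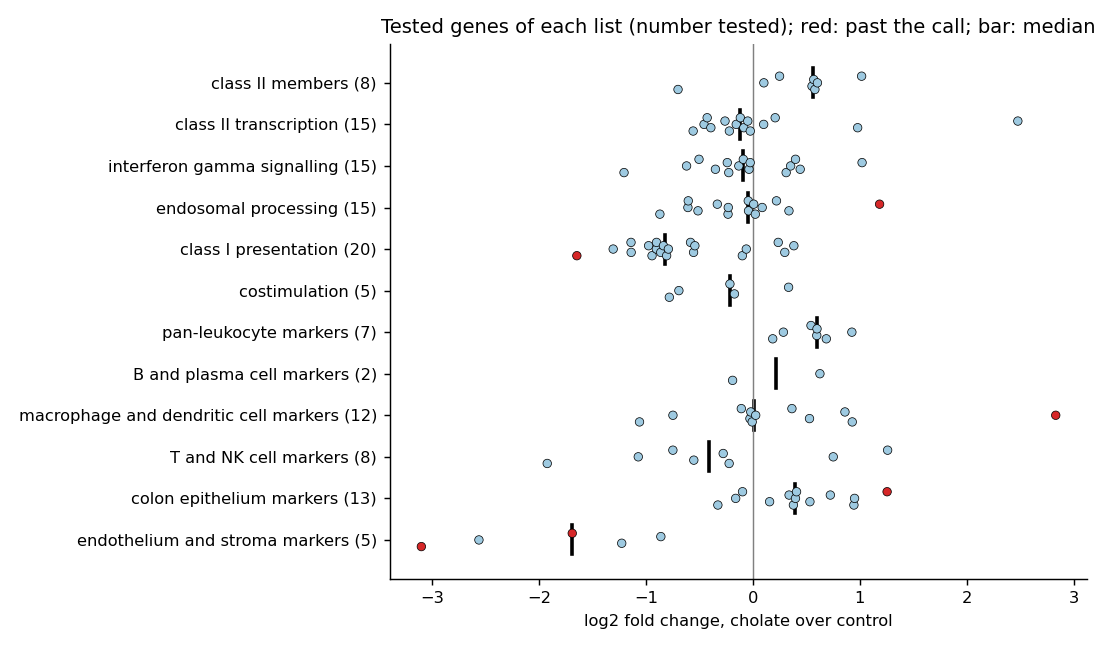
Log2 fold change of cholate over control (horizontal axis) of every tested gene in the class II set and 11 other lists (rows, with the number tested); red points passed the call and black bars are list medians. The class II median lies at 0.56 and the class I median at -0.82.

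Markers of other cells that express class II were examined beside these values. The summed level of 13 B and plasma cell markers was 2.05 to 6.15 CPM in the controls and 2.13 to 10.6 CPM on cholate (up to 5.10 CPM without cholate rat 4), and only 2 of the 13 had enough reads to be tested. Cd79a was at 0 in 2 libraries and Ms4a1 in 3, and neither exceeded 0.863 CPM in any library. The 19 macrophage and dendritic cell markers summed to 221.4 to 293.6 CPM in the controls and 235.2 to 294.8 CPM on cholate, and without Cd14, which gave most of that, to 28.7 to 36.6 and 30.0 to 39.8 CPM. C1qa stood at 6.04 ± 0.974 and 6.16 ± 0.505 CPM, Csf1r at 3.77 ± 1.18 and 3.50 ± 1.25 CPM and Itgax at 1.19 ± 0.559 and 1.53 ± 0.411 CPM (SD, n = 5). Of the 12 tested markers of this list 1 was called. That was Flt3, a receptor of dendritic cell progenitors, which rose from 0.225 ± 0.159 to 1.65 ± 0.717 CPM (log2 change 2.83, SE 0.52, adjusted p = 0.00646, edgeR), a call kept in 1 of the 10 fits that left out a rat. Fcgr1a, an Fc receptor of macrophages chosen after its values were seen, had 1.27 ± 0.139 and 0.611 ± 0.190 CPM with no overlap between diets (log2 change -1.06, adjusted p = 0.0337, edgeR).

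All 7 tested pan-leukocyte markers were higher by estimate, as were 48.9% of all genes, and none was called. Their median log2 change was 0.60, against 0.56 for the 8 class II members. Without cholate rat 4 these medians were 0.26 and 0.60. Ptprc, which encodes CD45, ran from 1.94 to 3.42 CPM in the controls and from 1.06 to 8.63 CPM on cholate (log2 change 0.60, adjusted p = 0.434, edgeR). Cholate rat 4 held the highest value, and the log2 change was 0.08 without it. In the 6 rats of the first library set all 7 markers were higher by estimate, with a median of 0.92, and in the 4 of the second 4 were higher and 3 lower, with a median of 0.07; Ptprc had 0.92 and -0.40 and Rac2 1.03 and 0.80. Rac2 made up most of the summed level and had a log2 change of 0.93 (adjusted p = 0.0131, edgeR); without it the sum was 14.3 to 25.8 CPM in the controls and 16.7 to 39.2 CPM on cholate. The T and NK cell markers had a median of -0.41 over 8 tested genes, and Cd3e stood at 0.972 ± 0.274 and 0.800 ± 0.565 CPM (SD, n = 5). The smallest adjusted p among them was that of Gzma, at a log2 change of -1.92 (adjusted p = 0.0456, edgeR).

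Epithelial and stromal markers are given for the same reason. Of 13 epithelial markers, 10 were higher by estimate and Krt20, a keratin of mature colonocytes, rose with a log2 change of 1.26 (adjusted p = 0.00406, edgeR). Vil1, the microvillus protein villin, had 0.72 (adjusted p = 0.00692, edgeR). All 5 tested endothelial and stromal markers were lower by estimate, 4 of them at an adjusted p under 0.05 (edgeR), which 7.28% of all genes were. The summed level of the 14 listed was 48.8 to 70.3 CPM in the controls and 12.3 to 15.6 CPM on cholate. Without Des, which gave most of it in the controls, the sum was 15.8 to 22.5 and 6.23 to 11.9 CPM. Des and Vwf were called, with log2 changes of -3.10 and -1.69 (adjusted p = 0.000417 and 0.00399, edgeR). When each rat was left out in turn, the call was kept in 7 of 10 fits for Krt20, in 10 for Des and in 5 for Vwf, and in the second library set Krt20 had an adjusted p of 0.0195 and Vwf one of 0.123 (edgeR). The part of cell composition in the class II values was not tested.

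The 8 genes whose deviations within diets were most like those of the mean of the tested members were Runx1, Ctsc, Arhgef28, Spast, Ptpre, Igf1r, Gprc5c and Cisd2, with Pearson r from 0.88 to 0.94 over the 10 libraries among 9268 genes ranked. The r values of the members themselves with that mean were 0.94 for RT1-Ba, 0.90 for RT1-Da, 0.85 for RT1-Bb, 0.73 for Ciita, 0.72 for Cd74, 0.49 for RT1-Db1, 0.05 for RT1-DOb and -0.12 for RT1-DOa. In the 6 rats of the first library set they were 0.93, 0.94, 0.93, 0.90, 0.85, 0.82, 0.79 and -0.48 in the same order. All points share their library and its depth and length profile, and a member contributes to the mean it is compared with. Ctsc encodes cathepsin C, a lysosomal protease, with a log2 change of 0.42 (adjusted p = 0.0219, edgeR), and Runx1, a transcription factor, had -0.10 (adjusted p = 0.789, edgeR).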

How the data were processed

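RNA was sequenced from 10 rats, 5 per diet. Per the submitters' processing notes, reads were demultiplexed with bcl2fastq 1.8.4, aligned to rn6 with BWA 0.7.12-r1039 and analysed with edgeR 3.16.2. The deposited table holds the authors' raw counts per gene and a normalized signal, which the authors scaled to CPM on TMM effective library sizes and which was used here only to read that scaling; gene lengths and coordinates were taken from the deposited annotation. Which program counted the reads, and whether by strand, is not stated in the sources.

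The counts were filtered with filterByExpr, scaled by TMM and tested in R 4.3.3 with edgeR 4.0.16 (quasi-likelihood, robust) over 12385 genes, with diet as the only term. Standard errors are the absolute log2 change over the square root of F. The test was checked on simulated data in which genes varied independently and no library sets were built in, so the check does not cover those sets. Alternatives used DESeq2 1.42.0 and limma 3.58.1. Partner ratios had 0.5 added to each count. Where a library shows 0, a level of up to 3 counts (0.0616 to 0.228 CPM) is still allowed by counting error.

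The members, the 11 other lists and the naming rule were chosen with earlier results of these data known. The rule named all members, the called genes of each list up to 4 or else the 1 with the smallest adjusted p, defining markers, the called genes lying among the members, and the 8 genes with the most similar deviations. Rfx5, Rfxap, Ifng, Cd80, Cd40, Prdm1, Ctss, Ctsb, Lamp2, Fcgr1a, B2m, RT1-A2, Tap1 and Psmb9 were added after their values were seen. Not every gene that it names is reported. The library sets were noticed in the data and divided by the sign of a component of these same counts. No paired analysis was possible because rat numbers differ between the diets.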

Additional observations from a re-analysis of the deposited data

How the results depend on the processing

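Besides the main analysis, 22 other fits were run, 3 of them by library set and chosen after seeing the data. The count of called genes was 398, and it became 242 with a mean of at least 5 CPM, 788 in DESeq2, 1157 in limma-voom with quality weights, 50 in glmTreat against a fold of 2, 1003 in the first library set, 112 in the second and 829 with the set as a term. Leaving out 1 rat gave 168 (without control rat 2) to 450 called genes. Called class II genes numbered 0 in all of them but limma-voom with quality weights, which called 1, RT1-DOb. RT1-Ba, RT1-Bb, RT1-Da and RT1-Db1 were higher on cholate in all 22 and Ciita lower in the 21 that tested it.

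RT1-DOa reversed to -0.14 without control rat 6, -0.11 without control rat 9 and -0.20 in the first set, and reached 0.61 without control rat 2, and Cd74 to -0.022 with quality weights and -0.064 in the first set. The RT1-Ba to RT1-Bb ratio reversed to -0.0060 with rats exchanged within sets and, like 2 others, when rats were left out, over ranges of -0.045 to 0.050 for it, -0.082 to 0.21 for RT1-Da to RT1-Db1 and -0.91 to 0.19 for RT1-DOa to RT1-DOb. Cd74 to RT1-Da stayed between -0.40 and -0.30, with adjusted p from 0.0635 to 0.127 by exact permutation. Among the markers C1qa reversed to -0.0047 with upper quartile scaling, -0.037 with library size alone, -0.0061 with a mean of at least 5 CPM, -0.056 with quality weights, -0.045 in the first set and as low as -0.057 (up to 0.084) when rats were left out. Csf1r ranged from -0.28 to 0.055 and Cd22 from -0.055 to 0.90 when rats were left out, and Ptprc was -0.40 in the second set. The cause was not tested. Depth limits RT1-DOb and Ciita most, with as few as 4 and 11 reads in a library.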
